A study of Mus musculus with 5 samples.

Results

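The stretch of mouse chromosome 16 from Cd47 to beyond Alcam, at 49800001 to 53350000 (mm10), was described on the 129 and the CAST allele of hybrid embryonic stem cells. It starts 1.46 Mb and ends 5.0 Mb downstream of a bait in the Dppa2/4 domain, where downstream means higher coordinates. Its members were chosen by position alone, as the 5-kb windows of the deposited table that lie in this interval. These were 710 of 545079 windows in all and of 19632 windows on chromosome 16. The series used 4C-seq, in which chromatin is fixed, cut with HindIII, ligated and cut again with DpnII, and the pieces joined to 1 bait are sequenced. Its title asks for elements in cis that control when and where DNA is replicated. Clones A6 and E2 of a cas/129 hybrid line, grown with 2i and LIF, are compared here, with 1 library each. The column that the files name svim is read as the 129 allele. Both clones carry CRISPR deletions labelled at 48308399 to 48311882, 48396806 to 48437301 and 48581359 to 48620367 of chromosome 16, on the bait side of the flank.

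The labels do not say which allele was deleted. The second interval held 26 reads on 129, against 12236 on CAST, in clone A6, and 67 against 18179 in clone E2. The third interval held 1 against 6766 in clone A6, and 6 against 12501 in clone E2. Reads were thus nearly missing on 129 in these intervals, while the first held at most 2 reads on either allele. The 129 allele is therefore called the deleted allele for the second and the third interval, and CAST, of castaneus origin, is its partner in the same nuclei. No unedited hybrid library was used here, so a difference due to the deletions and one due to the strains cannot be told apart in any value below.

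A 4C signal falls with distance from the bait, and contacts over megabases usually join stretches of like chromatin and like replication time. Dppa2 and Dppa4 encode chromatin proteins of pluripotent cells, and their domain replicates early in embryonic stem cells. The flank holds 5 protein-coding genes. Cd47 encodes the membrane protein that inhibits uptake by phagocytes, and Bbx encodes an HMG-box protein. Ccdc54 encodes a coiled-coil protein. Cblb encodes an E3 ubiquitin ligase that restrains T-cell activation, and Alcam encodes an adhesion protein of the immunoglobulin family. Dubr, a long noncoding RNA gene between Ccdc54 and Cblb, is known in mouse myoblasts to act on Dppa2.

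The labels give the primer pair below as the bait of both clones. It is shown because every contact in the flank is read from this 1 viewpoint. The protocol text names another pair, which anneals to a vector, and which pair was used was not tested.
bait forward primer: tttgggattttggagtgaagc
bait reverse primer: ctgctggacttgtcaactgaa

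Reads start at the restriction sites, so a promoter is seen only if a cut fragment end falls near it. RefSeq sequences of GRCm38.p6, which has the coordinates of mm10, list promoters of 300 bases for 18 genes of the flank, in 22 entries. None of the 22 holds AAGCTT, the HindIII site, which reads the same on both strands. Over all 32851 promoters of the table, 7.45% hold it. GATC, the DpnII site, which shares no overlap with AAGCTT, is in 7 of the 22, against 48.0% of all promoters. A gene's promoter window is the 5-kb window or windows that its promoter touches. In 12 of the 18 genes these windows held 0 reads in all 4 columns, which allows up to 3 reads in each. These include Cd47, Ccdc54, Cblb and Alcam, all 4 protein-coding genes with an entry. The promoter windows of 4 noncoding genes held 10 reads or more in total. The promoters of Cblb and Alcam are printed because these neighbours leaned to opposite alleles. Those of 2 noncoding genes are printed because their windows held reads, on both alleles for G730013B05Rik and on 129 alone for Gm29686. Capitals mark GATC.
Cblb, chr16:52031299-52031598, plus strand: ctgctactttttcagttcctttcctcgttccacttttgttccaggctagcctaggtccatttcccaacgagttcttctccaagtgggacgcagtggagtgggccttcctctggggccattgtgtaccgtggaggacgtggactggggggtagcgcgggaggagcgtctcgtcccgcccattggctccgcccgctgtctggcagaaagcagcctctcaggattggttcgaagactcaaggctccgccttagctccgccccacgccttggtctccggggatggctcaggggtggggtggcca
Alcam, chr16:52453032-52453331, minus strand: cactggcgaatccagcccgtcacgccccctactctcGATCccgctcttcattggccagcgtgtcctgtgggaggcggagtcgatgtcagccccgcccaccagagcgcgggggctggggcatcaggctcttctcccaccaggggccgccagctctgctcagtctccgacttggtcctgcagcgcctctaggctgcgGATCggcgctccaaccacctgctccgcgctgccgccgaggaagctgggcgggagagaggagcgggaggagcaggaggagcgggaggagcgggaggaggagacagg
G730013B05Rik, chr16:50525995-50526294, plus strand: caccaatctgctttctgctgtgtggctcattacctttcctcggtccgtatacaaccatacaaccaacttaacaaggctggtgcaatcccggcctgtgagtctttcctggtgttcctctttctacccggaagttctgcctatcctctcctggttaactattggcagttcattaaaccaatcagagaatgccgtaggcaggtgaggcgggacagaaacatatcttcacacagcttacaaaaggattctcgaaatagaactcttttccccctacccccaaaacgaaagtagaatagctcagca
Gm29686, chr16:51987238-51987537, minus strand: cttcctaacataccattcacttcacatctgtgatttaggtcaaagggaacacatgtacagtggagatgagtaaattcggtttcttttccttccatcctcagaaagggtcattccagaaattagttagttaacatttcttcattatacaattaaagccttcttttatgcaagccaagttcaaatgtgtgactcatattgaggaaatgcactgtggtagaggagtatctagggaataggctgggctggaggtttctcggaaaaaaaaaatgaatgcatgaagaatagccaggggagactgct

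The deposited values are RPM, the reads of each window scaled to the same total in every column and then averaged by the authors over 30 neighbouring windows, or 150 kb. Undoing this running mean gave whole reads, and a value is called "own reads" below where it rests on the reads of the windows themselves. Own reads numbered 1937280 on 129 and 1311580 on CAST in clone A6, and 2397572 and 1603247 in clone E2. The flank held 24611 and 14368 of them in clone A6, and 29819 and 17348 in clone E2. It took 5.27% of the chromosome 16 reads on 129 in clone A6 (95% Wilson interval 5.21 to 5.34%) and 4.61% on CAST (4.54 to 4.69%). In E2 it took 5.04% on 129 (4.98 to 5.09%) and 4.48% on CAST (4.42 to 4.55%). These intervals cover counting error alone. In all 4 columns the flank was well above the level of other chromosomes. Its mean per window was 11.2 times that of the other autosomes on 129 in clone A6 and 11.0 times in clone E2, against 9.92 and 9.83 times on CAST.

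The first question was whether the flank as a whole met the bait more often on one allele. Its mean signal was 17.5 RPM on 129 and 15.3 RPM on CAST in clone A6, and 17.2 and 15.2 RPM in clone E2. The log2 ratio of 129 to CAST was 0.191 in clone A6 and 0.184 in clone E2, a mean of 0.19 ± 0.01 (SD, n = 2). Both clones thus put 129 slightly above CAST, by nearly the same amount in the mean. By the median window the log2 ratio was 0.18 in clone A6 and 0.57 in clone E2, so there the clones shared the direction and not the size. With 2 clones an exact paired permutation test cannot give a two-sided p below 0.5, which is the value for the mean. A lean to 129 was not particular to the flank: the median 50-kb bin within 5 Mb of the bait had a log2 ratio of 0.44 in clone A6 and 0.47 in clone E2. The median bin of the flank had 0.38 and 0.48. The flank's median less that of all bins was -0.063 in clone A6 and 0.011 in clone E2, so the clones split and no difference from the surroundings was shown.

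A window counts as read on both alleles if each allele has at least 10 reads over the clones together. Over the 98 such windows the log2 ratio was 0.0078 in clone A6 and -0.0032 in clone E2. This choice rests on the allele reads themselves and drops more windows read on 129 alone, 81, than on CAST alone, 30. A lower ratio in the windows that remain is therefore built in for the flank and is no test of the lean. For the genes and stretches below, the same choice can move the ratio either way, so it is no test there either. These windows held 57.6% of the 129 reads and 66.1% of the CAST reads of the flank. Upstream of the bait, at the same distances, the mean signal was 35.8 RPM on 129 and 29.1 RPM on CAST in clone A6, and 30.8 and 28.7 RPM in clone E2. The upstream log2 ratio was 0.30 in clone A6 and 0.10 in clone E2. The flank minus the upstream stretch was -0.11 in clone A6 and 0.085 in clone E2, so the clones split (exact paired permutation p = 1, two-sided). Both clones were above 0 by the median over windows, with 0.013 in clone A6 and 0.56 in clone E2. They were also above 0 in own reads without the 5 windows with the most reads, with 0.047 and 0.30. The flank held fewer contacts than the upstream stretch in every column, but the allele ratio was not shown to differ between them.

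**Figure D1:**
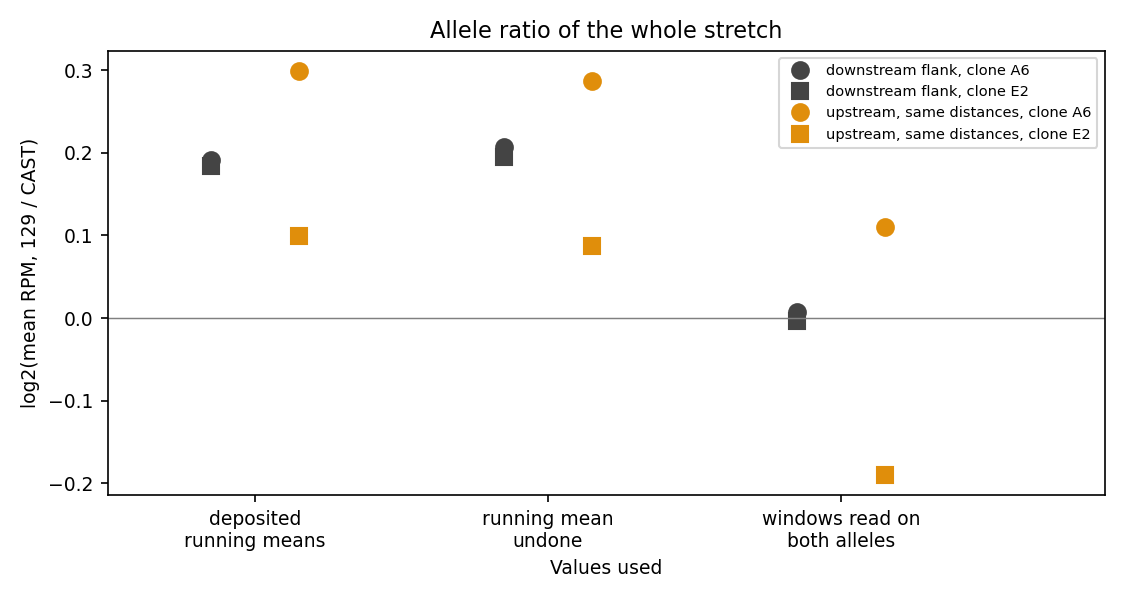
The log2 ratio of mean RPM on 129 to CAST is plotted for the downstream flank and for the upstream stretch at the same distances, with 1 point per clone, for 3 kinds of value. The flank points lie at 0.191 and 0.184 in the deposited running means and close to 0 over windows read on both alleles.

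The second question concerned the genes, each taken with 5 kb on either side. Bbx and Cblb had the higher level on 129 in both clones and Alcam on CAST in both, and for Cd47 and Ccdc54 the clones split. Gene values have no test beyond the spread of the clones, since the exact paired test of 2 clones ends at p = 0.5.

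Bbx, at 50191844 to 50432466, had 29.0 RPM in clone A6 and 25.2 RPM in clone E2 on 129, against 21.4 and 16.2 RPM on CAST. The alleles did not overlap, and the log2 ratio was 0.54 ± 0.14 (SD, n = 2). In own reads it had 3076 on 129, against 1611 on CAST, in clone A6, and 3199 and 1174 in clone E2, log2 ratios of 0.36 and 0.86. Over the 7 windows of Bbx read on both alleles they were 0.38 and 0.94, so Bbx leaned to 129 in each kind of value. Relative to the median bin within 5 Mb, Bbx was at -0.0032 in clone A6 and 0.16 in clone E2. The lean of Bbx to 129 was thus no larger than that of the median bin in clone A6 and slightly larger in clone E2.

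Cblb, at 52031230 to 52208047, had 15.9 RPM in clone A6 and 18.3 RPM in clone E2 on 129, against 12.6 and 12.2 RPM on CAST. The log2 ratio was 0.46 ± 0.18, and the alleles did not overlap. Own reads of Cblb numbered 1176 on 129, against 545 on CAST, in clone A6, and 1503 and 676 in clone E2, which gave nearly equal log2 ratios of 0.54 and 0.57. Of its windows, 5 were read on 129 alone, with at least 10 reads there and under 3 on CAST, and 0 on CAST alone. Over the 6 windows read on both alleles the log2 ratio of Cblb was -0.19 in clone A6 and 0.33 in clone E2, so the clones split there. Relative to the median bin it was -0.11 and 0.11.

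Alcam, at 52248996 to 52453081, starts 40.9 kb beyond Cblb and was lower on 129 in both clones. The 35 kb between the 2 genes, which hold no protein-coding gene, were lower on 129 by more, with log2 ratios of -1.69 in clone A6 and -0.58 in clone E2. Own reads of that stretch, from few windows, gave -1.68 and 0.064. Each running mean spans 150 kb, so those of this stretch take in reads of Cblb and Alcam. They do not show whether the lower level on 129 reached beyond Alcam. Alcam had 9.81 RPM in clone A6 and 13.8 RPM in clone E2 on 129, against 21.1 and 16.2 RPM on CAST. The log2 ratio was -0.67 ± 0.62, with -1.10 in clone A6 and -0.23 in clone E2, so the direction was shared and the size was not. Own reads of Alcam numbered 828 on 129, against 1119 on CAST, in clone A6, and 1289 and 1111 in clone E2, log2 ratios of RPM of -1.0 and -0.37. Over its 5 windows read on both alleles they were -1.47 and -0.094. Alcam stayed lower on 129 relative to the median bin, by -1.55 in clone A6 and -0.70 in clone E2. The difference between the log2 ratios of Cblb and Alcam, a contrast chosen after the values were seen, was 1.44 in clone A6 and 0.82 in clone E2. In own reads it was 1.54 and 0.94, and over windows read on both alleles 1.28 and 0.43.

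Cd47, at 49851328 to 49912503, had 31.4 RPM in clone A6 and 26.8 RPM in clone E2 on 129, against 27.3 and 47.7 RPM on CAST. The log2 ratio was 0.20 in clone A6 and -0.83 in clone E2, a mean of -0.31 ± 0.73. The gene rests on few fragments: 3 of its 15 windows held reads on 129 in each clone, and 2 held reads on CAST. One window, 49880001 to 49885000, held 98.3% of the CAST reads of Cd47 over both clones. It had 237 reads on 129 and 396 on CAST in clone A6, and 650 and 994 in clone E2, log2 ratios of -1.31 and -1.20. Over both windows of Cd47 read on both alleles the log2 ratio was -0.89 and -0.56. All own reads of the gene gave 0.026 and -0.47, so they split the clones as the running mean did.

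Ccdc54, at 50589859 to 50591154, had 22.9 RPM in clone A6 and 28.9 RPM in clone E2 on 129, against 13.1 and 34.0 RPM on CAST. Only 1 of its 4 windows held reads, with 50 on 129 and 72 on CAST in clone A6, and 56 and 14 in clone E2. The own log2 ratio was -1.10 in clone A6 and 1.41 in clone E2, opposite to the running means, whose log2 ratios were 0.80 and -0.23. No allele difference can be read for Ccdc54.

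On 129 the order of the means was Cd47 at 29.1 ± 3.3 RPM, Bbx at 27.1 ± 2.7, Ccdc54 at 25.9 ± 4.2, Cblb at 17.1 ± 1.7 and Alcam at 11.8 ± 2.8 RPM. The first 3 did not differ beyond their spread, and Cblb and Alcam lay below them in both clones. On CAST the order was Cd47 at 37.5 ± 14.4 RPM, Ccdc54 at 23.5 ± 14.7, Bbx at 18.8 ± 3.6, Alcam at 18.7 ± 3.4 and Cblb at 12.4 ± 0.3 RPM. There Alcam, the farthest gene, was above Cblb in both clones, and on 129 it was below Cblb in both.

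**Figure D2:**
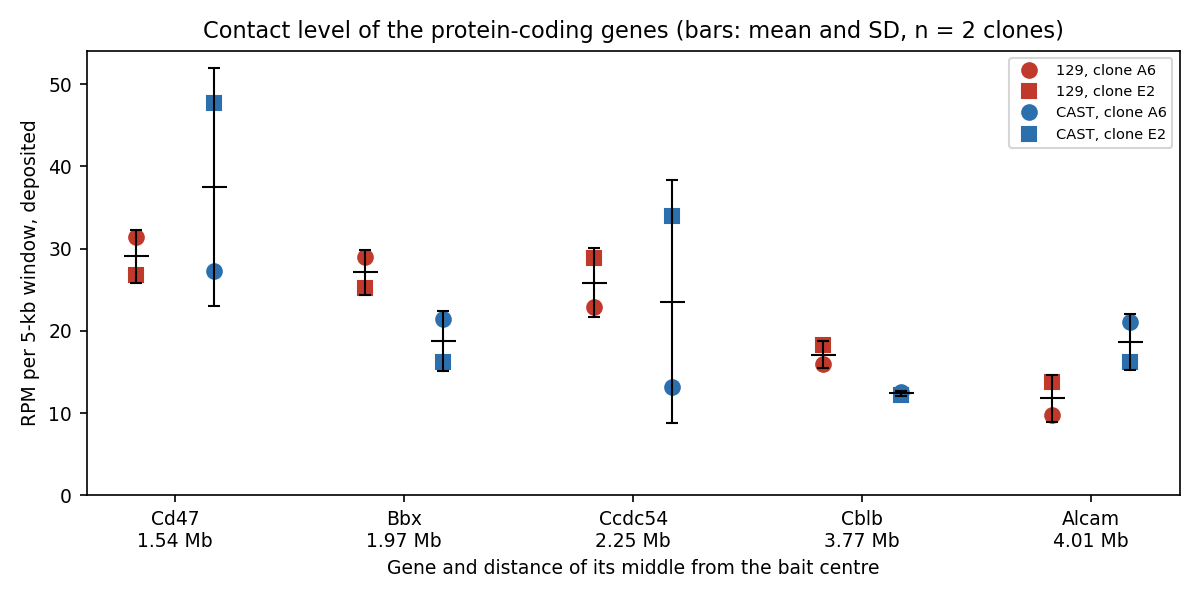
RPM per window on the y axis is plotted for the 5 protein-coding genes in order of distance from the bait, with 129 left of CAST. Circles are A6, squares are E2, and bars give the mean and SD of the 2 clones. Bbx and Cblb are higher on 129 in both clones, Alcam is lower, and the CAST points of Cd47 lie at 27.3 and 47.7 RPM.

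Of the 5 stretches outside these genes save Ccdc54, the 1.595 Mb from Bbx to Cblb differed least between the clones in its log2 ratio of running means. Its mean was 17.8 RPM in clone A6 and 17.9 RPM in clone E2 on 129, against 15.5 and 16.4 RPM on CAST, a log2 ratio of 0.16 ± 0.05. Over its 53 windows read on both alleles the log2 ratio was -0.20 in clone A6 and -0.43 in clone E2. In this stretch 39 windows were read on 129 alone and 15 on CAST alone.

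From Cd47 to Bbx, a stretch of 275 kb, the clones were opposite. The signal was 29.97 RPM in clone A6 and 18.9 RPM in clone E2 on 129, against 19.6 and 28.4 RPM on CAST. A single window at 49935001 to 49940000, between Cd47 and Bbx, had 1172 reads on 129 and 281 on CAST in clone A6, and 449 and 369 in clone E2. Its own log2 ratio was 1.49 in clone A6 and -0.30 in clone E2. Beyond Alcam, over 895 kb, the signal was 11.1 RPM in clone A6 and 12.5 RPM in clone E2 on 129, against 10.0 and 5.78 RPM on CAST. The log2 ratio there was 0.14 in clone A6 and 1.11 in clone E2.

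The allele difference was then tested bin by bin. The bins within 5 Mb of the bait, 198 in all, were tested together with limma on log2(RPM + 11.7), blocked by clone, and called at a Benjamini-Hochberg adjusted p under 0.05. The pseudocount is set from the median bin, and these log2 values understate the change of low bins. Of the 71 bins of the flank, 12 were higher on 129 (16.9%) and 5 were lower (7.04%). Over all 198 bins the shares were 32.3% higher and 12.1% lower, 44.4% in either direction. Both shares of the flank were below this background. The median limma log2 was 0.17 in the flank and 0.29 over all bins. When the log2 ratios were centred on the median bin, the flank had 3 bins higher (4.23%) and 13 lower (18.3%) on 129, against 15.2% and 20.7% of all bins, 35.9% in either direction. Because of the running mean, a bin and its neighbours rest partly on the same reads and are not independent tests. Fitted with all bins of chromosome 16, or of all chromosomes, 0 of the 71 passed in limma, and 11 (15.5%) and 12 (16.9%) did at an unadjusted p under 0.05. Over all bins of those fits the unadjusted shares were 23% and 17.8%.

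None of the 12 higher bins overlapped a protein-coding gene, though the one at 51.95 to 52.00 Mb holds the noncoding Gm29686 and that at 51.70 to 51.75 Mb the annotated LOC115488687. They lay in runs at 50.95 to 51.00, 51.40 to 51.60, 51.65 to 51.80, 51.90 to 52.00 and 53.25 to 53.35 Mb. Of the 5 lower bins, 3 formed a run at 50.65 to 50.80 Mb around Dubr, 1 lay over the 3′ end of Alcam and 1 at 53.10 to 53.15 Mb. Which genic bins were called depended on the tool. On own reads edgeR called the Cblb bin at 52.15 to 52.20 Mb higher (log2 9.14, adjusted p = 2.39e-05). It called those at 50.35 to 50.40 Mb in Bbx and 52.25 to 52.30 Mb in Alcam lower. DESeq2 called the same genic bins, that at 50.20 to 50.25 Mb in Bbx higher and that at 52.00 to 52.05 Mb in Cblb lower. In all, 35 of the 71 bins were higher on 129 in both clones, 12 were lower in both and 24 split the clones. The same count was not made over all 198 bins. Their median limma log2 of 0.29 was above the 0.17 of the flank, so the excess of higher bins is no trait of the flank.

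**Figure D3:**
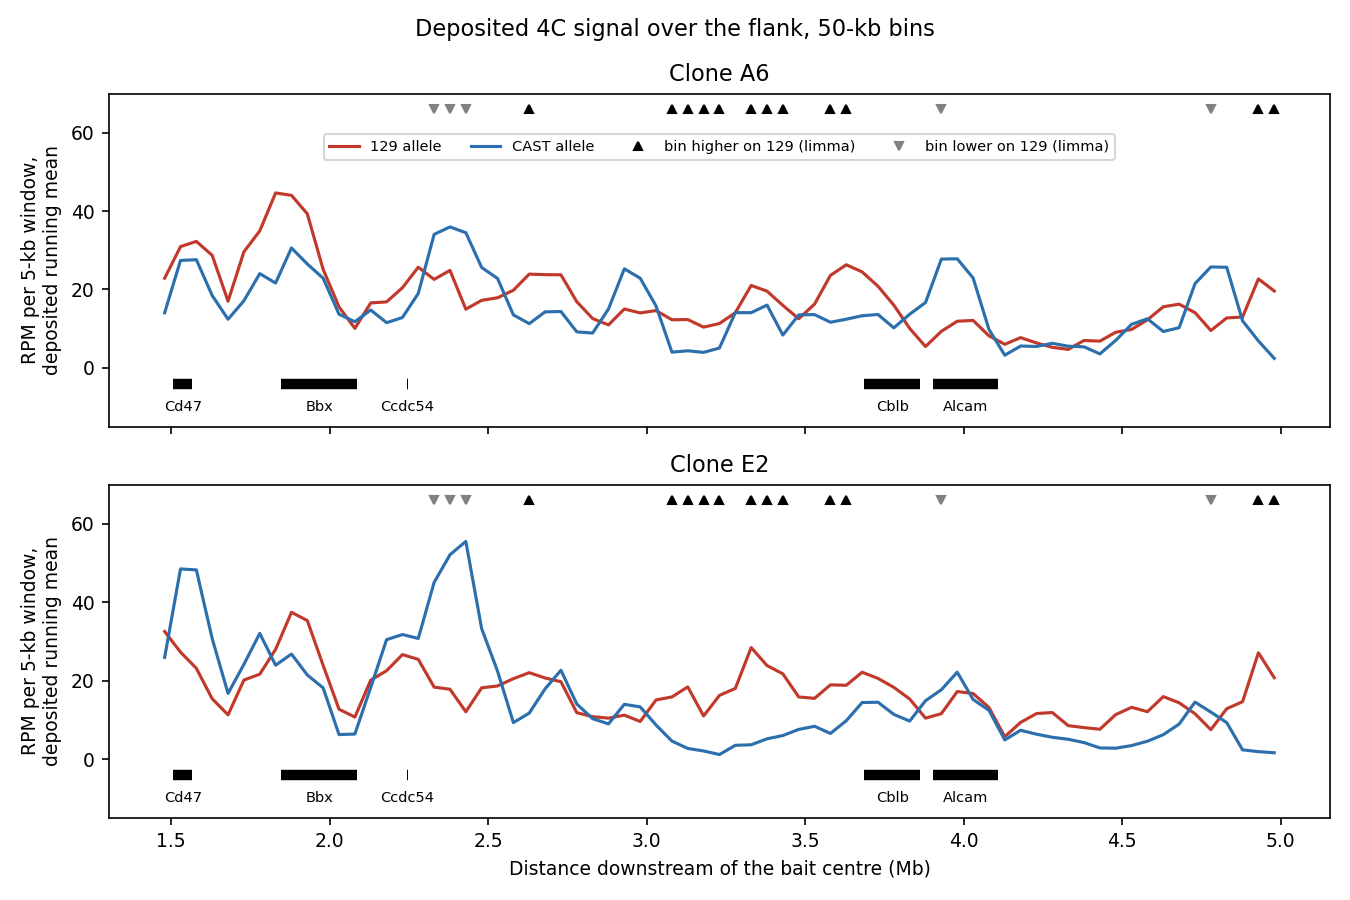
Deposited RPM in 50-kb bins is plotted against distance downstream of the bait centre for clone A6 above and clone E2 below, with 129 in red and CAST in blue. Bars mark the 5 protein-coding genes, and triangles mark the 12 bins called higher and the 5 called lower on 129. In both clones CAST peaks near 2.4 Mb, where 3 of the bins called lower on 129 lie.

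The bins with the largest ratios lay at the far end. At 53.30 to 53.35 Mb the signal was 19.6 RPM in clone A6 and 20.7 RPM in clone E2 on 129, against 2.41 and 1.603 RPM on CAST (limma log2 1.22, adjusted p = 5.34e-06). The bin itself held 985 reads on 129, against 74 on CAST, in clone A6, and 1428 and 63 in clone E2. Of its windows, 4 were read on 129 alone and 1 on CAST alone. The 1 window of this bin read on both alleles had log2 ratios of -1.82 in clone A6 and 2.96 in clone E2, so the clones split there. At 53.25 to 53.30 Mb the signal was 22.7 and 27.1 RPM on 129, against 6.87 and 1.88 RPM on CAST (limma log2 1.20, adjusted p = 6.13e-06). Here the own reads were few, with 137 on 129 and 2 on CAST in clone A6, and 24 and 11 in clone E2. The running mean of both bins also takes in windows beyond the flank.

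The other named higher bins lay between Ccdc54 and Cblb. At 51.65 to 51.70 Mb the signal was 21.0 RPM in clone A6 and 28.4 RPM in clone E2 on 129, against 14.1 and 3.65 RPM on CAST (limma log2 0.87, adjusted p = 0.00122). Its own reads went the other way, with 223 on 129 and 538 on CAST in clone A6, and 145 and 170 in clone E2. In RPM this was a log2 ratio of -1.84 and -0.82, so the call came from neighbouring windows.

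At 51.45 to 51.50 Mb the signal was 12.3 RPM in clone A6 and 18.4 RPM in clone E2 on 129, against 4.36 and 2.70 RPM on CAST (limma log2 0.82, adjusted p = 0.00205). The bin itself held 469 reads on 129, against 67 on CAST, in clone A6, and 399 and 79 in clone E2, nearly all from 1 window at 51465001 to 51470000 that was read on both alleles. At 51.55 to 51.60 Mb it was 11.3 and 16.2 RPM on 129, against 5.06 and 1.15 RPM on CAST (limma log2 0.79, adjusted p = 0.00314). That bin held only 15 own reads on 129 and 6 on CAST in clone A6, and 3 and 7 in clone E2.

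The lower run around Dubr was led by the bin at 50.75 to 50.80 Mb. It had 14.97 RPM in clone A6 and 12.1 RPM in clone E2 on 129, against 34.5 and 55.5 RPM on CAST (limma log2 -1.15, adjusted p = 1.74e-05). Its own reads split the clones, with 479 on 129 and 164 on CAST in clone A6, and 379 and 491 in clone E2. The bin at 50.70 to 50.75 Mb, which holds Dubr and Mir6363, had 24.9 and 17.8 RPM on 129, against 36.0 and 52.1 RPM on CAST (limma log2 -0.75, adjusted p = 0.00502). The bin itself held 340 reads on 129, against 849 on CAST, in clone A6, and 331 and 1656 in clone E2. At 50.65 to 50.70 Mb the limma log2 was -0.67 (adjusted p = 0.0123), and own reads of 697 on 129 and 486 on CAST in clone A6, and 537 and 540 in clone E2, gave log2 ratios of RPM of -0.049 and -0.60.

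A single CAST window held 691 of the 849 and 1322 of the 1656 CAST reads of the bin with Dubr. This window, at 50715001 to 50720000, had 0 reads on 129 in both clones. Set against 3 reads over both clones, its 129 level was at least 1002-fold lower. It was the window with the fourth highest read count of the flank. A running mean carries it over 150 kb. Dubr itself, at 50726751 to 50732773 and singled out after its values were seen, held 0 reads on 129, and 1 on CAST in clone A6 and 2 in clone E2, within 5 kb of the gene. Its deposited 25.2 and 17.5 RPM on 129 and 36.5 and 52.6 RPM on CAST came from its surroundings.

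The bin at 52.25 to 52.30 Mb in Alcam had 9.33 RPM in clone A6 and 11.6 RPM in clone E2 on 129, against 27.8 and 17.7 RPM on CAST (limma log2 -0.62, adjusted p = 0.0191). The bin itself held 37 reads on 129, against 221 on CAST, in clone A6, and 55 and 501 in clone E2, over 4 windows that were each lower on 129 in both clones. Of these windows, 2 were read on both alleles, with log2 ratios of -2.76 in clone A6 and -2.94 in clone E2. This was the one genic bin that limma called in the running means. The bin at 53.10 to 53.15 Mb had a limma log2 of -0.56 (adjusted p = 0.0354), with 15 own reads on 129 and 806 on CAST in clone A6, and 3 and 417 in clone E2. On own reads, edgeR also called it (log2 -7.46, adjusted p = 1.56e-10), as well as the bin in Alcam (log2 -4.07, adjusted p = 0.000477) and the bin with Dubr (log2 -3.01, adjusted p = 6.48e-06).

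Some of the widest differences in own reads were not called in the running means. At 50.10 to 50.15 Mb, between Cd47 and Bbx, there were 1405 own reads on 129, against 8 on CAST, in clone A6, and 974 and 2 in clone E2. The bin before it had 243 and 618 in clone A6, and 324 and 1061 in clone E2. The running mean joined these neighbours, and the bin at 50.10 to 50.15 Mb had a limma log2 of -0.0040 (adjusted p = 0.991). On own reads edgeR gave it a log2 of 6.82 and called it. It was also the one flank bin that limma called over windows read on both alleles, where 54 flank bins were tested. That call rests on 1 window, at 50130001 to 50135000. It had 738 reads on 129 and 8 on CAST in clone A6, and 617 and 2 in clone E2. Its CAST reads only just met the minimum of 10.

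Of the 12 bins called higher, 9 were higher on 129 in own reads in both clones, 1 was opposite in both and 2 split. Of the 5 called lower, 4 were lower in own reads in both clones and 1 split. These reads are the ones behind the running means, so they are no independent support. Of the 12, 8 had windows read on both alleles. Over these windows 1 bin was higher on 129 in both clones, 3 were opposite in both and 4 split. Of the 5, 4 had such windows, and 3 were lower on 129 in both clones there. The remaining one, at 50.75 to 50.80 Mb, had 0 reads on 129 in clone A6 in its 1 such window. With edgeR on own reads, 12 bins of the 68 tested in the flank were higher and 6 lower on 129, and over all 189 bins tested 13.8% were higher and 14.8% lower, 28.6% in either direction. The limma and edgeR lists shared 6 bins, all in the same direction, which was 35.3% of the limma list and 33.3% of the edgeR list. The lists have different zero points, since edgeR rescaled the columns with TMM factors. The median log2 over all bins was 0.29 in limma and -0.15 in edgeR. With limma on own reads 0 of 71 bins passed, and 19 (26.8%) did at an unadjusted p under 0.05, against 34.3% of all 198. Over windows read on both alleles edgeR called 0 of 54 and limma 1 of 54, with 14 (25.9%) and 13 (24.1%) at an unadjusted p under 0.05. Over all bins those fits called 0% and 1.23%, and 24.7% and 25.8% at an unadjusted p under 0.05.

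**Figure D4:**
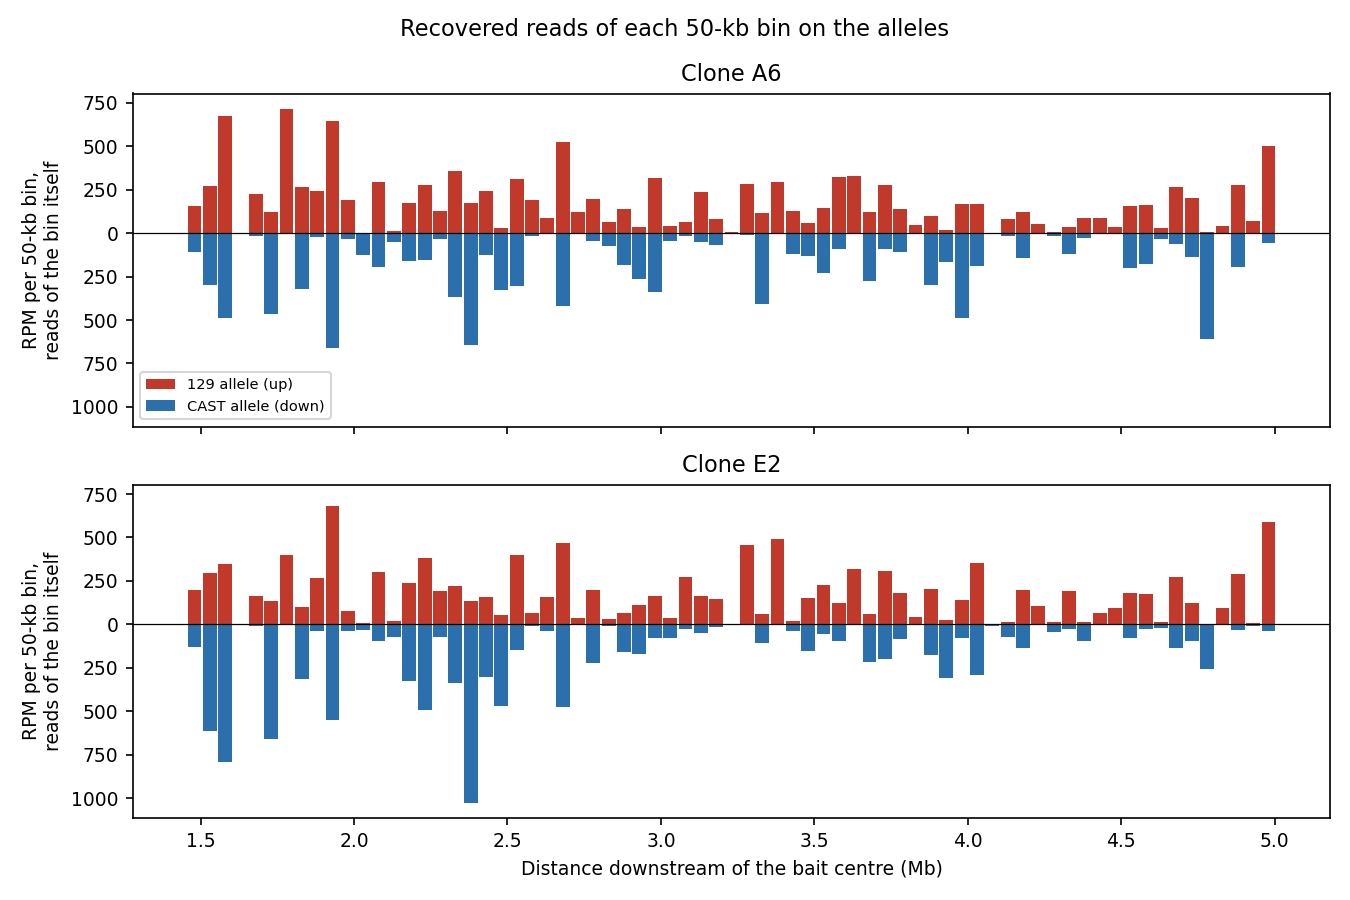
Recovered reads of each 50-kb bin, as RPM summed over the bin, are drawn upward for 129 and downward for CAST against distance from the bait centre, for A6 above and E2 below. Some bins stand almost wholly on one side in both clones, such as the one with 1405 and 974 reads on 129. The bin at 50.35 to 50.40 Mb does so in clone A6 alone, with 2 reads on 129 and 168 on CAST. In clone E2 it had 25 and 56. A tall CAST bar near 2.4 Mb, the tallest in clone E2, holds the window with 691 and 1322 CAST reads.

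Another question was how single windows behaved, since the 71 bins rest on few of them. Reads were found in 249 of the 710 windows. In A6, 211 windows were read on 129 and 153 on CAST, and in clone E2 217 and 154. The clones read nearly the same windows on each allele. On 129, 207 windows were read in both clones, 98.1% of those of A6 and 95.4% of those of E2. On CAST it was 147, or 96.1% and 95.5%. The alleles shared fewer. In clone A6 120 windows were read on both, 56.9% of the 129 windows and 78.4% of the CAST windows. In clone E2 it was 126, or 58.1% and 81.8%. With the clones together, 132 of the 249 windows had reads, of any number, on both alleles. At the same distances upstream it was 165 of 261, and over the rest of chromosome 16 it was 1685 of 4642.

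Windows read on 1 allele alone held a large part of the reads. With at least 10 reads on one allele and under 3 on the other, both clones together, there were 81 on 129 and 30 on CAST. They held 36.2% of the 129 reads and 24.9% of the CAST reads of the flank. Over the rest of chromosome 16 they held 33.1% and 28.3%. At the same distances upstream they held 23.5% and 15.1%. Whether an allele could be read in such a window, which needs a site cut in that strain and a base that tells the strains apart, was not tested.

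The largest window read on 129 alone lay at 51725001 to 51730000, between Ccdc54 and Cblb. It had 411 reads in clone A6 and 634 in clone E2 on 129, and 0 on CAST, at least 233-fold higher on 129 against 3 reads over both clones. The window at 50135001 to 50140000, between Cd47 and Bbx, had 667 and 357 reads on 129 and 0 on CAST, at least 228-fold higher. In Bbx, the window at 50220001 to 50225000 had 335 and 446 reads on 129 and 0 on CAST. On the CAST side, the window at 50090001 to 50095000 had 0 reads on 129, and 382 in clone A6 and 566 in clone E2 on CAST. One-sided windows of opposite kinds thus lay within 50 kb of each other.

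Among the 5 windows with the most reads in total, 4 were read on both alleles. Besides the windows in Cd47 and next to it, these were 1 in Bbx at 50265001 to 50270000 and 1 in the noncoding gene G730013B05Rik at 50525001 to 50530000. The Bbx window had 391 reads on 129 and 383 on CAST in clone A6, and 877 and 387 in clone E2, log2 ratios of -0.54 and 0.59. The window in G730013B05Rik had 335 and 181 in clone A6, and 553 and 378 in clone E2, or 0.32 and -0.038. In both the clones split.

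As a description over 71 bins of own reads, which share libraries between alleles, the same allele in the 2 clones was more alike than the 2 alleles in 1 clone. Pearson's r of log2(RPM + 1) was 0.82 for 129 and 0.85 for CAST between the clones. Between 129 and CAST it was 0.30 in clone A6 and 0.28 in clone E2. The log2 ratios of the clones had r = 0.76, and r = 0.57 in the running means. The pattern of the allele ratio along the flank was thus shared in part by the clones. Both clones hold the same 2 strain genomes, and nearly the same windows were read on each allele in both. These values of r therefore do not measure shared contacts alone. How much of them came from which windows can be read on an allele was not tested.

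The last question was whether the alleles differed in how far they favoured genes. A bin is called genic here if a protein-coding gene overlaps it, which held for 19 bins. The other 52 are called intergenic, though some hold noncoding genes. Genic bins had the higher mean on both alleles, and more so on CAST. On 129 the mean was 20.4 RPM in genic and 16.4 RPM in intergenic bins in clone A6, and 19.8 and 16.3 RPM in clone E2. On CAST it was 18.6 and 14.1 RPM in clone A6, and 19.4 and 13.6 RPM in clone E2. The log2 ratio of genic to intergenic bins was 0.30 ± 0.02 on 129 and 0.46 ± 0.08 on CAST (SD, n = 2). With the running mean undone it was 0.32 ± 0.04 on 129 and 0.78 ± 0.21 on CAST. The alleles did not overlap in either kind of value. The protein-coding genes behind the genic bins did not lean alike. Bbx and Cblb were higher on 129 in both clones and Alcam on CAST, and for Cd47 and Ccdc54 the clones split. The larger genic excess on CAST was thus not a trait of each gene.

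Taken bin by bin on log2(RPM + 11.7), the 129 to CAST ratio of genic minus that of intergenic bins was -0.12 in clone A6 and -0.20 in clone E2. Its mean was -0.16 ± 0.06, and the exact paired permutation p was 0.5, the smallest 2 clones can give. Own reads gave -0.24 and -0.45. In the windows read on both alleles the values were -0.21 in clone A6 and 0.082 in clone E2, windows chosen by the allele reads themselves. Of the 19 genic bins 0 were called higher and 1 lower by limma, against 12 and 4 of the 52 intergenic bins. Distance from the bait was not held equal in this comparison.

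**Figure D5:**
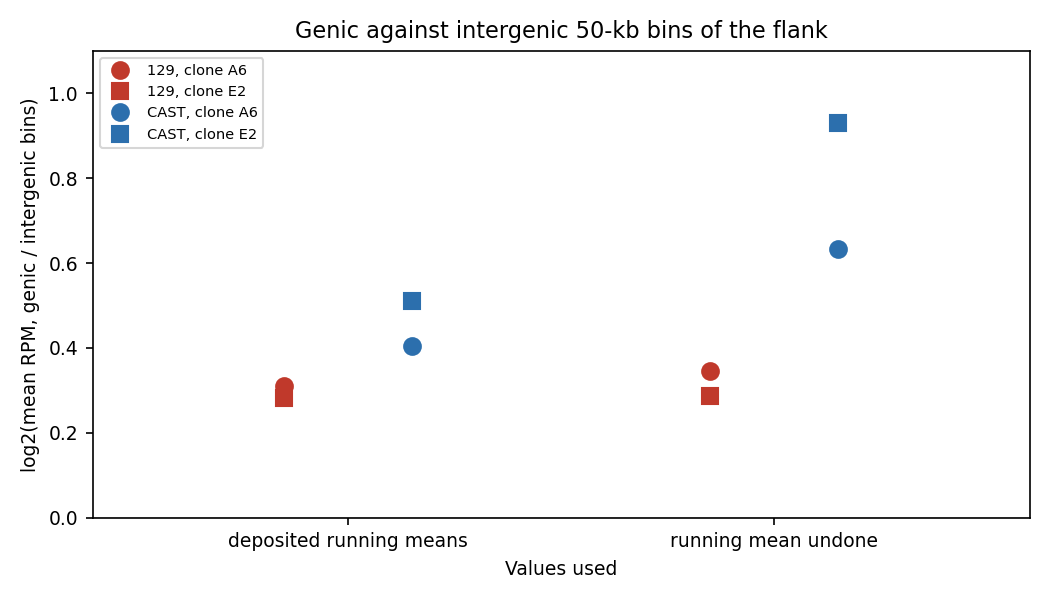
The log2 ratio of the mean RPM in genic to intergenic bins is plotted for each allele and clone, for the deposited running means and with the running mean undone. The 129 points lie near 0.3 in both, and the CAST points lie above them, at 0.40 and 0.51 and then at 0.63 and 0.93.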

How the data were processed

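The deposited table gives RPM per allele and clone in 5-kb windows of mm10, smoothed by the authors, per the file headers and the values. Bowtie2 and the builds mm9 and mm10 are named in the submitters' processing notes, with no version or role given there. Each value is the mean of 30 windows, and all were whole multiples of 1 step within 0.01 (100% of values), so reads were recovered, with 0 windows below 0. The svim column is taken as the 129 allele of the labels. The bait was placed at 48345000, the middle of a 50 kb gap without windows.

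The bin test, 129 minus CAST, was limma's (version 3.58.1, R 4.3.3), and bins touching the gap were left out. The SE was 0.23 for every bin. Alternatives used edgeR 4.0.16 with TMM factors, run on recovered reads of RPM steps, and DESeq2 1.42.0. Python 3.11.15, numpy 2.4.6 and pandas 2.3.3 were used elsewhere. Genes came from RefSeq of GRCm38.p6.

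All protein-coding genes, the 5 called bins at each extreme with 1 sign in both clones, and the 5 windows with the most reads were named. Members and lists were chosen with earlier results of these data known. The clones are 1 library each. The bin p-values rest on 1 spread pooled over all bins, whose running means overlap, and not on each bin's own 2 clones. The inbred libraries of the series have another bait and build and were not used. Alleles of a clone come from 1 library, so clone was a block.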

Additional observations from a re-analysis of the deposited data

How the results depend on the processing

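Under the alternatives run, Bbx and Alcam kept their direction in both clones except for Bbx on ratios centred on the median bin, where A6 was at -0.0032. The counts of called bins depended on the values, the tool and the bins fitted together. On own reads edgeR called 12 higher and 6 lower and DESeq2 14 and 9, where limma called 0. The DESeq2 counts were 20.6% and 13.2% of the 68 flank bins tested, near the 19% and 15.9% of all 189 bins. Bins higher on 129, 12 as reported, were 0 with the running mean undone, 1 over windows read on both alleles (0 with edgeR), 3 after centring, 6 at or above the lower quartile, 4 with 100-kb bins and 6 with bins shifted by 25 kb. They were 0 when all bins of chromosome 16 or of all chromosomes were fitted. Bins lower on 129, 5 as reported, were 0 with the running mean undone, 0 over windows read on both alleles with limma and edgeR, 0 in both wider fits, 1 with 100-kb bins, 2 when shifted, 3 with a mean-variance trend and 13 after centring. Fits without the replicate block gave 12 and 5, against 62 and 22 of all 198 bins. Over all bins, those at or above the lower quartile gave 59 higher and 22 lower of 148. With 100-kb bins it was 25 and 8 of 98, with shifted bins 46 and 15 of 196, and with the trend 60 and 17 of 198. Leaving out a clone leaves no residual degrees of freedom, so bins have no test then.

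The flank ratio of 0.19 was 0.20 with the running mean undone, 0.34 without the 5 windows with the most reads in it, 0.38 by the median window, 0.17 after rescaling to chromosome 16, 0.16 without 150 kb at both ends, 0.0023 over windows read on both alleles and -0.27 less the median bin within 5 Mb, which sets a ratio of means against a median. The median bin of the flank less that of all bins was -0.026. Single clones gave 0.184 to 0.191. The flank minus upstream value of -0.012 was 0.28 by the median window and 0.17 without the top 5 windows, with both clones above 0 in each, and -0.11 to 0.085 in single clones. The genic minus intergenic value of -0.16 was -0.34 with the running mean undone, -0.065 over windows read on both alleles, -0.23 with all annotated genes, -0.22 without intergenic bins within 150 kb of a gene, -0.095 with the larger pseudocount and -0.20 to -0.12 in single clones. The cause of these shifts was not tested. The trend, edgeR over shared windows and the flank and gene ratios set against the median bin were chosen after seeing the data. Depth limits bins with few reads: a ratio over windows with 0 reads on one allele is a bound.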
